A study of Mus musculus with 16 samples.

Results

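The genes described here are 8 genes of the MHC class II antigen presentation pathway: H2-Aa, H2-Ab1, H2-Eb1, Cd74, Ciita, H2-DMa, H2-DMb1 and Ctss. They were chosen by matching these names to the gene names of the deposited expression table. All 8 were found, among 55487 gene identifiers in all.

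RNA-Seq was done on cortex of wild-type C57BL/6 male mice aged 2 months, to ask how the time of day (TOD) of an inflammatory challenge bears on the response of the brain. Each mouse received an i.p. injection of LPS (lipopolysaccharide, a bacterial cell wall component) at 2 mg/kg, or of PBS (saline buffer) as control, on each of 2 consecutive days, and tissue was taken on the day after the second injection. ZT counts the hours since lights on, so that ZT1 falls early in the light phase and ZT13 early in the dark phase. The 4 groups were ZT1 PBS (n = 3), ZT1 LPS (n = 5), ZT13 PBS (n = 3) and ZT13 LPS (n = 5). Each library is named below by its group and its replicate number.

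MHC class II molecules are pairs of an alpha and a beta chain that show peptides from endocytosed protein to CD4 T cells. In the endoplasmic reticulum the new pair is held by the invariant chain, which proteases in endosomes trim down to a short peptide in the binding groove, and the DM molecule then trades that peptide for others. Expression is set mainly by the transactivator CIITA, and in the brain it is found chiefly in macrophages at the borders, in dendritic cells and in activated microglia, while resting microglia have little.

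Levels are given as CPM, the share of a library's gene reads that fell on a gene, scaled to the same total in every library. The step between the lowest CPM values corresponded to 20251840 to 29112758 reads on genes in each library, with a median of 22459623. At that depth the chain genes rest on few reads: H2-Aa on 11 to 47 in a library, H2-Eb1 on 10 to 67 and H2-Ab1 on 18 to 81, against 371 to 1780 for Ctss. A difference of a few reads therefore moves the chain genes by a large share, and a small change in them could be missed. How small a change could be detected at this depth was not tested.

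Several features of the libraries come before the results. The tissue label fits the cortical neuron markers, since Slc17a7 was at 1151 to 1393 CPM and Snap25 at 1199 to 1357 CPM in all 16 libraries. Groups follow the sample titles, and a separate treatment field names the other treatment for 12 of the 16 libraries. Grouped by that field, 0 genes of 18859 passed the limma test for LPS against PBS at either time, with 996 at an unadjusted p under 0.05 at ZT1 and 2153 at ZT13. Markers of the choroid plexus, the secretory tissue that projects into the ventricles, differed widely within groups: their 5 genes summed to 11.7 to 28.1 CPM in 6 libraries and to 151 to 964 CPM in the other 10. The 6 low libraries were replicates 1 and 3 of ZT1 PBS, 2 and 4 of ZT1 LPS, 2 of ZT13 PBS and 2 of ZT13 LPS.

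Differences were tested with limma on log2(CPM + 0.5), for the 18859 genes that reached 1 CPM in 3 or more of the 16 libraries. All 8 class II genes were among them, although H2-Aa, H2-Eb1 and H2-DMb1 reached 1 CPM in only 2, 1 and 2 of the 6 PBS libraries and so entered through LPS libraries too. A log2 fold change on this scale understates the change of genes near 1 CPM because of the 0.5 added. A gene is said to have risen or fallen where its p, adjusted over all genes tested by the Benjamini-Hochberg method, was under 0.05. SE is the standard error of the log2 fold change, ± gives the SD between the mice of a group (n = 3 with PBS and 5 with LPS at each time unless another number is given), and intervals are 95% intervals of the fit. Cortex holds many cell types, so more cells of a type and more RNA per cell cannot be told apart in any of these values.

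In the GRCm38 build the chain and DM genes lie together in the H2 region of chromosome 17. H2-DMa runs from 34119541 to 34139101, H2-DMb1 from 34153072 to 34160230, H2-Ab1 from 34257689 to 34269419 and H2-Eb1 from 34305867 to 34316674, all on the plus strand. H2-Aa lies between those chain genes, from 34282744 to 34287823 on the minus strand. The remaining genes are elsewhere, with Cd74 on chromosome 18 from 60803848 to 60812652, Ciita on chromosome 16 from 10480059 to 10528418 and Ctss on chromosome 3 from 95526786 to 95556403, all on the plus strand.

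After LPS, the invariant chain gene Cd74 and the protease gene Ctss rose at both times, and H2-Ab1, H2-Eb1 and H2-DMb1 also rose at ZT13. At ZT1 that made 2 of 8 genes higher and 0 lower, where 11.1% of all genes tested rose and 5.15% fell. At ZT13 it made 5 of 8 higher and 0 lower, where 19.2% of all genes rose and 9.40% fell. H2-Aa, H2-Eb1 and H2-DMb1 were tested only because of their LPS libraries. Neither these counts nor the medians that follow are therefore support for a rise of the list. The median log2 fold change of the 8 genes was 0.33 at ZT1, against 0.04 over all genes tested. At ZT13 it was 0.73, against 0.05 over all genes. H2-Aa, H2-DMa and Ciita passed the test at neither time.

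**Figure D1:**
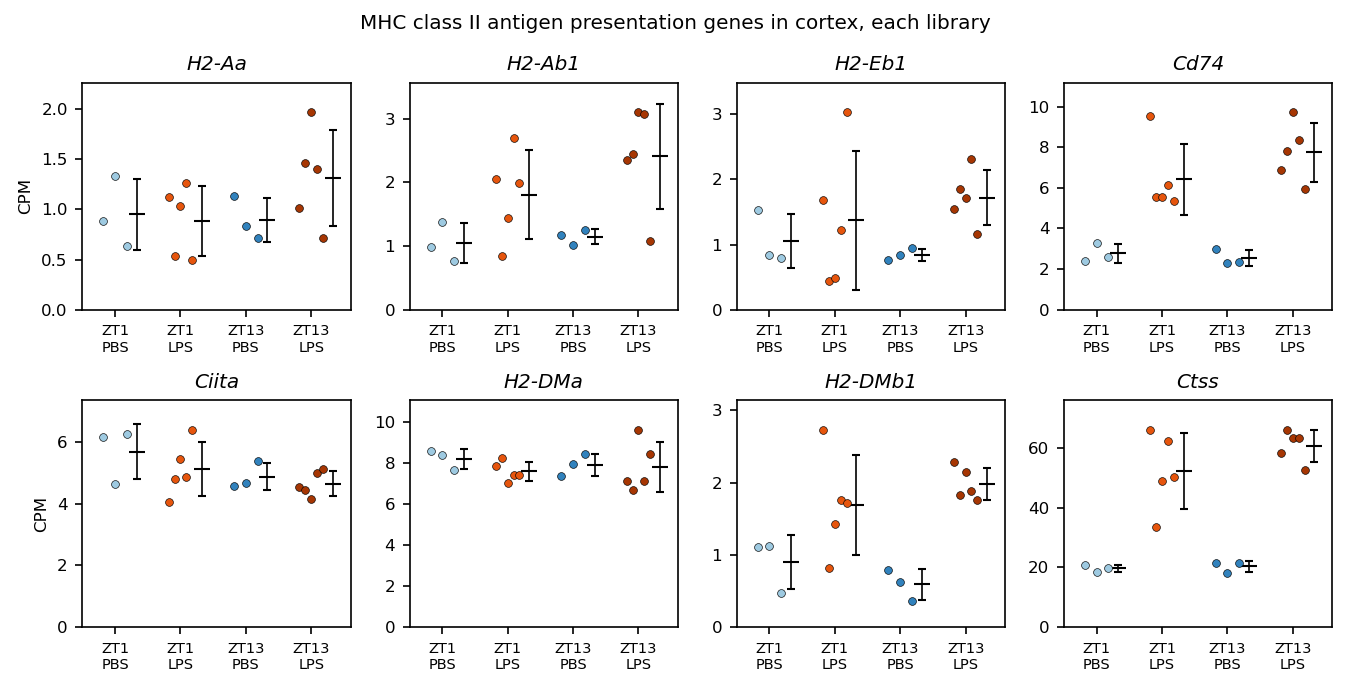
CPM of each class II gene (vertical axis, from 0) in each of the 16 libraries, 1 point per mouse, with the group mean and SD beside the points. Cd74 and Ctss lie above every PBS library in all 10 LPS libraries, while Ciita and H2-DMa overlap between groups.

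Of the chain genes, H2-Ab1 encodes the beta chain of the I-A molecule. At ZT1 it was at 0.986, 1.38 and 0.758 CPM in the PBS libraries and at 2.05, 0.850, 1.44, 2.70 and 1.99 CPM in the LPS libraries. At ZT13 the PBS libraries were at 1.18, 1.02 and 1.25 CPM and the LPS libraries at 2.35, 2.45, 3.10, 3.07 and 1.07 CPM. At each time 4 of 5 LPS libraries stood above all 3 PBS libraries and 1 lay within the PBS range, replicate 2 at ZT1 and replicate 5 at ZT13. At ZT1 the log2 fold change was 0.54 (SE 0.26, adjusted p = 0.183), which did not pass the test. At ZT13 H2-Ab1 rose by 0.76 (SE 0.23, adjusted p = 0.0258). This call was lost without ZT13 PBS replicate 1, 2 or 3 (adjusted p = 0.0619, 0.0908 and 0.0562), without ZT13 LPS replicate 3 or 4 (adjusted p = 0.0572 and 0.0606), when every gene with any reads was tested (0.156) and with no intensity trend in the prior variance (0.0634), over a range of 0.000252 to 0.156. Without ZT1 LPS replicate 2 the ZT1 difference passed, at 0.72 (SE 0.20, adjusted p = 0.0330, in a range of 0.0330 to 0.507).

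H2-Eb1 encodes the beta chain of I-E. It was at 1.53, 0.839 and 0.7999 CPM in the ZT1 PBS libraries and at 1.68, 0.448, 0.481, 1.23 and 3.03 CPM in the ZT1 LPS libraries. The ZT1 LPS libraries surrounded the PBS values, 2 above all of them and 2 below, with a log2 fold change of 0.12 (SE 0.39, adjusted p = 0.879). At ZT13 it was at 0.759, 0.833 and 0.941 CPM with PBS and at 1.55, 1.85, 1.72, 2.31 and 1.16 CPM with LPS. There all 5 LPS libraries were above all 3 PBS libraries, and H2-Eb1 rose by 0.70 (SE 0.18, adjusted p = 0.00838). In a single fit of all 16 libraries, where the spread of the ZT1 LPS group also counts, that adjusted p was 0.123, the highest of a range from 0.00215. The alpha chain that would pair with it is encoded by H2-Ea, a gene that C57BL/6 mice carry in a form that is not expressed, and H2-Ea was at 0 in all 16 libraries.

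H2-Aa encodes the alpha chain of I-A, the partner of the H2-Ab1 product. In the ZT1 libraries it was at 0.888, 1.33 and 0.632 CPM with PBS and at 1.12, 0.537, 1.03, 1.26 and 0.498 CPM with LPS. In the ZT13 libraries it was at 1.14, 0.833 and 0.717 CPM with PBS and at 1.02, 1.46, 1.97, 1.40 and 0.716 CPM with LPS. The groups overlapped at both times, with 0 of 5 LPS libraries above all PBS libraries at ZT1 and 3 of 5 at ZT13. Its log2 fold change was -0.07 (SE 0.24, adjusted p = 0.879) at ZT1, with an interval from -0.61 to 0.46. At ZT13 it was 0.35 (SE 0.22, adjusted p = 0.272), with an interval from -0.12 to 0.82 that also holds a change as large as that of H2-Ab1.

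Cd74 encodes the invariant chain, which escorts new class II pairs to the endosome. It was at 2.42, 3.31 and 2.61 CPM in the ZT1 PBS libraries and at 9.52, 5.55, 5.53, 6.16 and 5.35 CPM in the ZT1 LPS libraries. In the ZT13 PBS libraries it was at 2.999, 2.31 and 2.33 CPM, and in the ZT13 LPS libraries at 6.86, 7.82, 9.73, 8.37 and 5.96 CPM. At both times every LPS library was above every PBS library, and replicate 1 stood apart at the top of the ZT1 LPS group. Cd74 averaged 2.78 ± 0.469 CPM with PBS and 6.42 ± 1.76 CPM with LPS at ZT1, a rise of 1.06 on the log2 scale (SE 0.18, adjusted p = 0.00222). At ZT13 the averages were 2.55 ± 0.391 CPM and 7.75 ± 1.44 CPM, a rise of 1.43 (SE 0.15, adjusted p = 5.29e-06). As folds these were 2.08 (interval 1.59 to 2.72) and 2.69 (interval 2.16 to 3.34). Both rises passed the test with each library left out in turn, replicate 1 of ZT1 LPS included.

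H2-DMa and H2-DMb1 encode the alpha chain and a beta chain of the DM molecule, the peptide editor. H2-DMb1 was at 1.11, 1.13 and 0.474 CPM in the ZT1 PBS libraries and at 2.73, 0.820, 1.43, 1.76 and 1.72 CPM in the ZT1 LPS libraries. At ZT13 it was at 0.790, 0.630 and 0.358 CPM with PBS and at 2.28, 1.83, 2.15, 1.88 and 1.77 CPM with LPS. At ZT1 replicate 2 of the LPS group lay among the PBS libraries and the other 4 lay above them, whereas at ZT13 all 5 LPS libraries were above all 3 PBS libraries. The log2 fold change at ZT1 was 0.62 (SE 0.27, adjusted p = 0.1502, unadjusted p = 0.0434). At ZT13 H2-DMb1 rose by 1.20 (SE 0.17, adjusted p = 9.5e-05). Without ZT1 LPS replicate 2 the ZT1 difference passed too, at 0.79 (SE 0.24, adjusted p = 0.0404, in a range of 0.0404 to 0.464).

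The split of reads between H2-DMb1 and its close copy H2-DMb2 is uncertain. To within 0.01 read, both genes came to whole reads in 1 of 16 libraries, while their sum did so in 16 of 16, at 14 to 66 reads, so reads that match both were divided between them. H2-DMb1 received 57.1% to 94.7% of the sum. With both genes summed, a choice made after the data were seen, the log2 fold change was 0.53 (SE 0.22, adjusted p = 0.133) at ZT1 and 0.96 (SE 0.18, adjusted p = 0.000893) at ZT13.

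H2-DMa ranged from 6.68 to 9.62 CPM over the 16 libraries, and its LPS and PBS values overlapped at both times. Its log2 fold change was -0.11 (SE 0.09, adjusted p = 0.462) at ZT1 and -0.03 (SE 0.12, adjusted p = 0.887) at ZT13. The intervals were narrow, from -0.30 to 0.08 and from -0.28 to 0.22, and lie below the differences measured for Cd74 and Ctss. Its exons share 360 of 3448 bases with Brd2, which lies on the opposite strand, and whether reads were counted by strand is not given in the sources used here, so reads of Brd2 could be among those of H2-DMa. H2-DMa came to whole reads in 0 of 16 libraries, so its level and its narrow intervals may rest in part on reads shared with other genes.

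Ctss encodes cathepsin S, the protease that removes most of the invariant chain from class II pairs in macrophages, dendritic cells and B cells. It was at 20.9, 18.3 and 19.7 CPM in the ZT1 PBS libraries and at 65.9, 33.7, 49.0, 62.3 and 50.3 CPM in the ZT1 LPS libraries. In the ZT13 libraries it was at 21.5, 18.3 and 21.5 CPM with PBS and at 58.3, 66.1, 63.2, 63.4 and 52.4 CPM with LPS. Every LPS library was above every PBS library, and the lowest LPS value, in ZT1 replicate 2, was still above the highest PBS value. At ZT1 Ctss rose by 1.35 (SE 0.17, adjusted p = 0.000353), a fold of 2.55 (interval 1.97 to 3.32). At ZT13 it rose by 1.55 (SE 0.08, adjusted p = 4.74e-09), a fold of 2.93 (interval 2.61 to 3.28).

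Ciita encodes the transactivator, which binds no DNA itself and is recruited by factors on class II promoters. In the ZT1 libraries it was at 6.16, 4.64 and 6.24 CPM with PBS and at 4.06, 4.79, 5.43, 4.87 and 6.39 CPM with LPS. In the ZT13 libraries it was at 4.55, 4.68 and 5.38 CPM with PBS and at 4.52, 4.43, 4.15, 5.002 and 5.10 CPM with LPS. The LPS and PBS libraries overlapped at both times. The log2 fold change was -0.14 (SE 0.15, adjusted p = 0.563) at ZT1, with an interval from -0.46 to 0.18, and -0.06 (SE 0.11, adjusted p = 0.718) at ZT13, with an interval from -0.30 to 0.17. Its exons share 329 of 9535 bases with Dexi on the opposite strand, and Ciita came to whole reads in only 12 of 16 libraries, so some of its reads may belong to another gene.

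Between times of day, 0 of the 8 genes passed the limma test among LPS mice, where 4 of 18859 genes did (0.0212%), and 0 of the 8 had an unadjusted p under 0.05, as 1998 of all genes had. Among PBS mice the count was also 0 of 8, where 0.520% of all genes passed, with 0 of the 8 and 2543 of all genes at an unadjusted p under 0.05. The ZT13 against ZT1 difference in LPS mice was above 0 for 7 of the 8 genes, from 0.03 for H2-DMa to 0.40 for H2-Eb1, with -0.12 for Ciita. The median was 0.26, against 0.01 over all genes tested. In PBS mice the median was -0.08, against -0.00039 over all genes.

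The larger number of rises at ZT13 is not by itself a difference between the times. The interaction asks whether the LPS effect differed between ZT13 and ZT1, and limma called 0 of the 8 genes for it, where 0.159% of all genes passed, with 0 of the 8 and 1745 of all genes at an unadjusted p under 0.05. The interaction of H2-DMb1 was 0.58 (SE 0.33, adjusted p = 0.644) and that of H2-Eb1 was 0.58 (SE 0.46, adjusted p = 0.766). For Cd74 it was 0.37 (SE 0.24, adjusted p = 0.706), with an interval from -0.14 to 0.88. For H2-Ab1 it was 0.22 (SE 0.38, adjusted p = 0.916) and for Ctss 0.20 (SE 0.21, adjusted p = 0.840). The intervals of all 8 genes held 0, and those of the chain genes were wide, that of H2-Eb1 running from -0.38 to 1.55.

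**Figure D2:**
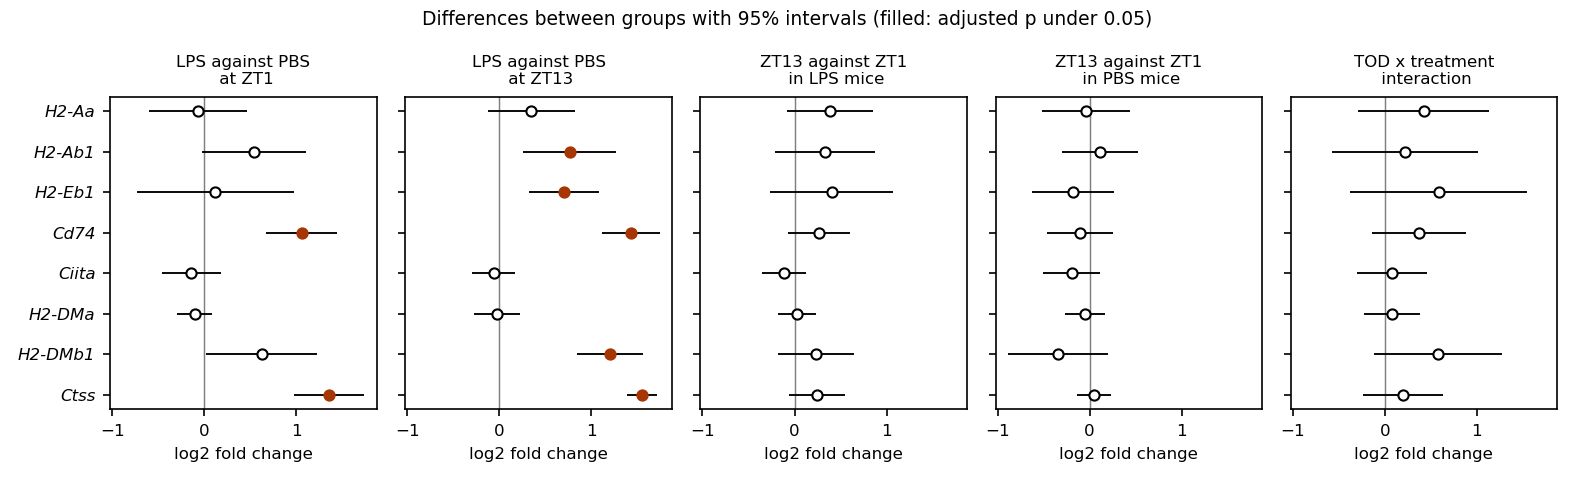
Log2 fold change of each class II gene (horizontal axis) in the 5 comparisons, with 95% intervals as lines and filled points where the adjusted p was under 0.05. At ZT1 2 genes are filled and at ZT13 5 genes, while the 2 comparisons between times and the interaction have 0 filled points.

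Levels of different genes can be set side by side per kilobase of transcript, here the longest annotated coding transcript of each gene. The order depends in part on those lengths, and reads of H2-DMa, H2-DMb1 and Ciita may be shared with other genes, as described above. On this scale Ctss was the most abundant of the 8 genes. Its level over the 6 PBS libraries was 14.8 ± 1.10 CPM per kb, and over the 10 LPS libraries 41.7 ± 7.55 CPM per kb. H2-DMa followed in PBS mice at 4.02 ± 0.243 CPM per kb, and Cd74 at 1.89 ± 0.288 CPM per kb. The PBS levels of H2-Ab1 (0.904 ± 0.183 CPM per kb), Ciita (0.878 ± 0.129 CPM per kb) and H2-Aa (0.819 ± 0.235 CPM per kb) did not differ beyond their spread. H2-Eb1 (0.569 ± 0.174 CPM per kb) and H2-DMb1 (0.533 ± 0.230 CPM per kb) were lowest and also lay within each other's spread. With LPS the level of Cd74 was 5.02 ± 1.18 CPM per kb, above that of H2-DMa at 3.84 ± 0.436 CPM per kb, although the ranges of these genes overlapped (3.79 to 6.90 and 3.33 to 4.80 CPM per kb). The level of H2-DMb1 with LPS, 1.31 ± 0.362 CPM per kb, lay within the spread of H2-Ab1 at 1.74 ± 0.647 CPM per kb.

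Within groups the 8 genes did not vary as a block. Over the 16 libraries, after the mean of each group was removed, the 28 pairs of these genes had correlations from -0.75 to 0.75 with a median of 0.23, and 18 pairs were above 0. H2-Aa was most like Cd74 (r = 0.75) and H2-Ab1 (r = 0.73), while H2-Ab1 was most like Ctss (r = 0.73). Every pair below 0 held Ciita or H2-DMa, and all pairs among the remaining genes were above 0. The lowest of the latter were H2-Aa with H2-Eb1, both chain genes (r = 0.03), and H2-Eb1 with Cd74 (r = 0.20). Their other pairs were at 0.50 or more. Ciita had the lowest values, with r = -0.75 for Cd74 and -0.66 for H2-Aa. These values are descriptions of 16 libraries in which the chain genes rest on few reads, and they share the scaling of each library.

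A score was made of the chain genes H2-Aa, H2-Ab1 and H2-Eb1 with Cd74, again with group means removed, and 18855 other tested genes were ranked by their correlation with it over the 16 libraries. The 5 most alike were Rps23-ps1 (r = 0.92), Il17ra (r = 0.91), Gngt2 (r = 0.91), Skap2 (r = 0.91) and Gm43504 (r = 0.91), where the median over all ranked genes was 0.03. Scores lay lowest in ZT13 LPS replicate 5 (-0.52) and ZT1 LPS replicate 2 (-0.52), the libraries farthest from the median. Without this pair the correlations were 0.83, 0.85, 0.76, 0.90 and 0.81. Among the genes of the pathway and marker lists, the protease gene Ctsz ranked 13 (r = 0.88) and the monocyte receptor gene Ccr2 ranked 23 (r = 0.87). All 7 endosomal genes had values above 0, with Ifi30 at rank 200 (r = 0.76), Ctsb at 308 (r = 0.73), Ctsd at 412 (r = 0.70), Lgmn at 1262 (r = 0.56), Cst3 at 2500 (r = 0.43) and Ctsl at 5267 (r = 0.24). The monocyte list was more spread, as Chil3, Plac8 and Ly6c2 ranked 811 (r = 0.62), 1748 (r = 0.50) and 10259 (r = -0.01). At the opposite end lay the neuron marker Tbr1 at rank 18847 (r = -0.82) and the B cell marker Ighm at 18831 (r = -0.78), and microglia markers were mixed, with r = 0.71 for Tmem119 and -0.32 for Siglech. Ctss ranked 120 (r = 0.79), H2-DMb1 379 (r = 0.70), H2-DMa 10667 (r = -0.03) and Ciita 16195 (r = -0.34).

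Other genes of the pathway were taken from lists of 37 names, of which 34 were in the table and 27 could be tested. At ZT1 10 of the 27 rose and 0 fell, with a median log2 fold change of 0.12, where 11.1% of all genes tested rose and 5.15% fell, with a median of 0.04. At ZT13 12 rose and 1 fell, with a median of 0.17, where 19.2% of all genes rose and 9.40% fell, with a median of 0.05. In the comparisons between times and in the interaction limma called 0 of the 27. Few genes of any kind passed there: 0.0212% of all genes tested among LPS mice, 0.520% among PBS mice and 0.159% in the interaction. The genes of endosomal processing, which cut antigen and invariant chain, had 5 of 7 higher at each time. Ifi30, the thiol reductase that opens disulfide bonds of antigens, was at 1.49 ± 0.235 CPM with PBS and 14.1 ± 4.74 CPM with LPS at ZT1. At ZT13 it was at 1.38 ± 0.252 CPM and 17.5 ± 1.53 CPM. Its log2 fold changes of 2.81 (SE 0.24, adjusted p = 2.25e-05) and 3.27 (SE 0.11, adjusted p = 1.11e-10) were the largest of the 27 genes, with all 5 LPS libraries above all PBS libraries at both times. The cathepsin genes Ctsz (1.24 at ZT1 and 1.53 at ZT13), Ctsl (0.81 and 0.89) and Ctsb (0.36 and 0.44) rose on the log2 scale, as did the asparaginyl protease gene Lgmn (0.66 and 0.60), with adjusted p of 0.000427 or less and all 5 LPS libraries above all PBS libraries each time. Cst3, which encodes an inhibitor of these proteases, had a mean of 387 to 408 CPM in the 4 groups with 0 calls. It was the most abundant gene of the list in PBS mice, and Ctsb was in LPS mice (414 CPM at ZT1 and 444 CPM at ZT13).

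In the list of interferon gamma and its signalling, 4 of 8 tested genes rose at ZT1 and 5 of 8 at ZT13, where 11.1% and 19.2% of all genes tested rose. Interferon gamma is the classical inducer of CIITA outside professional antigen presenting cells. Its own gene, Ifng, was at 0 in 14 of 16 libraries and reached at most 1 read, so it could not be tested. Irf1, a factor that acts on the Ciita promoter, rose by 1.04 (SE 0.10, adjusted p = 6.52e-05) at ZT1 and 1.37 (SE 0.12, adjusted p = 1.08e-06) at ZT13. Irf8 rose by 0.87 and 1.17, and the receptor chain gene Ifngr1 by 0.69 and 1.02. Jak2, a kinase bound to the receptor, rose at ZT13 by 0.17 (SE 0.06, adjusted p = 0.0458). That call was lost without ZT13 PBS replicate 1, 2 or 3 or ZT13 LPS replicate 1, 3 or 4 (adjusted p 0.0558 to 0.138), and also under 6 other settings, median-of-ratios scaling among them (0.11, adjusted p = 0.135). Jak1, the most abundant gene of the list at 140 to 160 CPM, passed at neither time.

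The factors that bind class II promoters had 0 of 7 called at ZT1 and 1 of 7 at ZT13, where 11.1% and 19.2% of all genes tested rose and 5.15% and 9.40% fell. Rfxank, a subunit of the RFX complex, rose at ZT13 by 0.41 (SE 0.06, adjusted p = 0.000211), against 0.14 (SE 0.08, adjusted p = 0.286) at ZT1, and its interaction was 0.27 (SE 0.09, adjusted p = 0.351). Creb1, the most abundant factor of the list at 40.4 to 51.0 CPM, was not called. In the list of class II turnover, beside the same shares, 0 of 3 were called at ZT1 and 1 fell at ZT13. That gene was Cd83, whose product protects class II from the ubiquitin ligases of the list, with a log2 fold change of -0.32 (SE 0.10, adjusted p = 0.0330). The call was lost without ZT13 PBS replicate 1 or 3 or ZT13 LPS replicate 2, 4 or 5 (adjusted p 0.0518 to 0.176), and under 3 other settings. Marchf8, the most abundant of that list, was at 40.6 to 48.5 CPM and was not called.

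Of the costimulatory genes, 1 of 2 tested rose at each time, where 11.1% of all genes rose at ZT1 and 19.2% at ZT13, and that gene, Cd86, reached 1 CPM in 1 of 6 PBS libraries, so it was tested only through LPS libraries. Cd86, which gives the second signal to T cells, was at 0.845 ± 0.0753 CPM with PBS and 1.97 ± 0.653 CPM with LPS at ZT1, a log2 fold change of 0.84 (SE 0.22, adjusted p = 0.0228). At ZT13 it rose by 0.77 (SE 0.18, adjusted p = 0.00469). It was the most abundant of these genes in LPS mice, while in PBS mice Cd80 was, at 1.25 CPM at ZT1 and 1.39 CPM at ZT13, and Cd80 was not called. The ZT1 call was lost without ZT1 PBS replicate 1, 2 or 3 or ZT1 LPS replicate 4 (adjusted p 0.0514 to 0.0914), when every gene with any reads was tested (adjusted p = 0.114) and with replicate number as a block (0.62, SE 0.22, adjusted p = 0.0929). Among the other class II chains, 5 of 6 names were in the table and 0 could be tested. H2-DMb2 was the most abundant at up to 0.642 CPM, and H2-Ob, H2-Oa and H2-Eb2 reached at most 0.341, 0.258 and 0.275 CPM.

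Cell type markers were measured in the same libraries, and their part in the class II results was not tested. Beside every count of markers below stand the shares of all genes tested, 11.1% higher and 5.15% lower at ZT1, and 19.2% higher and 9.40% lower at ZT13. Of 10 microglia markers, 5 rose and 2 fell at ZT1, and 5 rose and 4 fell at ZT13. Csf1r, the most abundant, rose by 0.59 at both times (adjusted p = 0.00602 and 1.02e-06, SE 0.12 and 0.05). The largest rises were Tmem119 at ZT1 (0.72) and Cx3cr1 at ZT13 (0.85), and the largest fall was Siglech (-1.75 and -2.43). With single libraries left out, 2 to 5 markers rose at ZT1, the fewest without ZT1 PBS replicate 3, where Tmem119 had an adjusted p of 0.0508. With every gene with any reads tested, 4 of the 5 rises at ZT1 were lost, those of Tmem119, Cx3cr1, Sall1 and Csf1r (adjusted p 0.0817 to 0.167). With replicate number as a block, Gpr34 (-0.94, adjusted p = 0.0114) and Fcrls (-0.99, adjusted p = 0.0220) passed as lower at ZT1 too. Gpr34 also did so with sample quality weights (adjusted p = 0.0205), in a single fit (0.0408) and without ZT1 LPS replicate 5 (0.00575). The 10 markers summed to 258, 234 and 235 CPM in ZT1 PBS libraries and to 330, 231, 329, 385 and 367 CPM in ZT1 LPS libraries. In ZT13 libraries they summed to 244, 227 and 229 CPM with PBS and to 312, 327, 270, 273 and 321 CPM with LPS. ZT1 LPS replicate 2, low for Ctss, H2-Ab1 and H2-DMb1 among its group, was at the PBS level of this sum, and the other 9 LPS libraries were above all PBS libraries. The sum is carried by abundant markers such as Csf1r, and the mean of log2(CPM + 0.5), which weighs the 10 markers alike, ran otherwise. At ZT13 all 5 LPS libraries (3.50 to 4.02) were below all PBS libraries (4.04 to 4.16), and at ZT1 the LPS libraries (3.52 to 4.39) surrounded the PBS libraries (4.09 to 4.23).

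Markers of border macrophages, which lie along vessels and in the meninges, had 3 of 5 tested genes higher at ZT1 and 2 of 5 at ZT13. Cbr2, 1 of the 3, and Lyve1 reached 1 CPM in 0 PBS libraries and were tested only through LPS libraries, so these counts are no support for a rise of the list. F13a1, the most abundant in LPS mice, rose by 1.75 (SE 0.32, adjusted p = 0.00380) and 2.15 (SE 0.09, adjusted p = 9.5e-10). With every gene with any reads tested, the ZT1 rise of F13a1 had an adjusted p of 0.0644. Mrc1, the most abundant in PBS mice at 4.61 and 4.34 CPM, was at 4.43 and 4.99 CPM with LPS and was not called. The ZT1 call of Cbr2 was lost without ZT1 PBS replicate 1, 2 or 3 or ZT1 LPS replicate 1, 3 or 4, with every gene with any reads tested and with replicate number as a block (adjusted p 0.0507 to 0.146). The 7 markers summed to 9.81, 11.9 and 8.46 CPM in ZT1 PBS libraries and to 25.05, 11.3, 20.1, 25.3 and 17.2 CPM in ZT1 LPS libraries. In ZT13 libraries they summed to 10.8, 11.1 and 11.6 CPM with PBS and to 26.6, 27.3, 30.1, 28.2 and 27.3 CPM with LPS. Replicate 2 was again the lowest of the ZT1 LPS group, inside the PBS range. Much of the rise in the sum came from F13a1, at 2.02 and 8.42 CPM with PBS and LPS at ZT1 and 2.86 and 14.5 CPM at ZT13. Pf4, too low to be tested, averaged 0.507 and 0.266 CPM at ZT1 and 0.336 and 0.798 CPM at ZT13. The mean of log2(CPM + 0.5) over the 7 markers was 0.53 to 0.73 with PBS and 0.66 to 1.41 with LPS at ZT1. At ZT13 it was 0.64 to 0.79 and 1.40 to 1.67.

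All 4 monocyte markers rose at both times. Each was under 0.3 CPM in every PBS library and so was tested only because it was high enough with LPS, which makes this count no support for a rise of the list. They summed to 0.584, 0.642 and 0.425 CPM in ZT1 PBS libraries and to 13.5, 3.45, 4.83, 9.09 and 3.35 CPM in ZT1 LPS libraries. In ZT13 libraries they summed to 0.154, 0.381 and 0.238 CPM with PBS and to 18.3, 13.6, 29.9, 26.6 and 10.9 CPM with LPS. Every LPS library was thus above every PBS library, and 1 marker alone was called at ZT1 without ZT1 PBS replicate 3. Chil3, the most abundant in LPS mice and the largest rise, averaged 4.27 ± 4.02 CPM with LPS at ZT1 and 15.8 ± 6.90 CPM at ZT13, and was at or near 0 with PBS. Its ZT1 call was lost without ZT1 PBS replicate 1 or 3 (adjusted p = 0.0563 and 0.0505) and with every gene with any reads tested (0.121). The ZT1 call of Ccr2 was lost with replicate number as a block (0.94, SE 0.30, adjusted p = 0.0748). It was also lost with every gene with any reads tested (0.160), no intensity trend (0.0661) or the choroid plexus level as a covariate (0.0546). The same held without ZT1 PBS replicate 1, 2 or 3 or ZT1 LPS replicate 1 or 4 (adjusted p 0.0696 to 0.149).

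Dendritic cell markers were scarce, with 5 of 7 averaging under 1 CPM and Cd209a at 0 in 9 of 16 libraries. The 2 tested were Zbtb46, the most abundant, which was not called, and Flt3, which rose by 0.53 (SE 0.11, adjusted p = 0.00631) at ZT1 and 0.25 (SE 0.07, adjusted p = 0.0149) at ZT13. The latter call was lost without ZT13 PBS replicate 1 (adjusted p = 0.0799) and with replicate number as a block (0.26, adjusted p = 0.0620). Median levels over the 16 libraries were 16.3 CPM for Zbtb46 and 11.9 CPM for Flt3. Xcr1, Clec9a and Cd209a of the same list reached at most 0.313, 0.455 and 0.134 CPM. Which cells the reads of Zbtb46 and Flt3 came from was not tested. Neither the rise of Flt3 nor the list sum can therefore be read as a measure of dendritic cells alone. The list summed to 26.0 to 29.6 CPM in ZT1 PBS, 29.1 to 33.7 CPM in ZT1 LPS, 24.9 to 28.7 CPM in ZT13 PBS and 28.7 to 30.4 CPM in ZT13 LPS libraries, most of it from Zbtb46 and Flt3. Its mean of log2(CPM + 0.5) was higher in every LPS library than in any PBS library of the same time, at 0.42 to 0.64 with PBS and 0.76 to 0.88 with LPS at ZT1, and 0.47 to 0.52 and 0.65 to 0.92 at ZT13. Among the markers too low to be tested, Ccr7 averaged 0.0305 and 0.370 CPM with PBS and LPS at ZT1 and 0.0281 and 0.355 CPM at ZT13, and Itgax 0.220 and 0.669 CPM and 0.106 and 0.729 CPM. Cd209a went the other way, averaging 0.0658 and 0.0160 CPM at ZT1 and 0.0729 and 0 CPM at ZT13. Of the 7 B cell markers, Ms4a1 was at 0 in 13 of 16 libraries. Ighm, the most abundant and the 1 tested, fell by 1.07 (SE 0.26, adjusted p = 0.0175) at ZT1 and by 2.21 (SE 0.23, adjusted p = 6.63e-06) at ZT13. Its ZT1 call was lost without ZT1 PBS replicate 1 or 3 (adjusted p = 0.0856 and 0.0779), with every gene with any reads tested (0.139) and with no intensity trend (0.0563). Of the other B cell markers, all too low to be tested, Cd79b and Pax5 were higher with LPS, with means of 0.0585 and 0.524 CPM for Cd79b and 0.129 and 0.406 CPM for Pax5 at ZT1, and 0.111 and 0.531 CPM and 0.197 and 0.332 CPM at ZT13. Cd79a was lower with LPS at ZT1 (0.197 and 0.165 CPM) and higher at ZT13 (0.149 and 0.173 CPM). Being mostly Ighm, the B cell list summed to 10.9 to 14.6 CPM in ZT1 PBS, 4.90 to 9.51 CPM in ZT1 LPS, 11.3 to 16.7 CPM in ZT13 PBS and 3.06 to 5.64 CPM in ZT13 LPS libraries. Its mean of log2(CPM + 0.5), which weighs each gene alike, overlapped at ZT1, at -0.23 to -0.09 with PBS and -0.28 to -0.04 with LPS, and at ZT13 was lower in all 5 LPS libraries (-0.37 to -0.19) than in the PBS libraries (-0.15 to 0.01).

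Among 6 markers of meningeal fibroblasts, 1 rose and 1 fell at ZT1, and 2 rose and 3 fell at ZT13. Dcn rose by 1.54 and 2.13, Slc22a6 fell by 0.63 and 0.87, and Igf2, the most abundant, had -0.28 at ZT1, which was not called, and fell by 0.79 at ZT13. With every gene with any reads tested the ZT1 fall of Slc22a6 was lost (adjusted p = 0.0590), and with the choroid plexus level as a covariate Igf2 passed at ZT1 (-0.41, adjusted p = 0.00607). Their summed level was 109 to 183 CPM in PBS libraries at ZT1 and 117 to 167 CPM with LPS, and 110 to 150 CPM and 113 to 126 CPM at ZT13. Of the 5 cortical neuron markers, 0 were called at ZT1 and 2 fell at ZT13, Slc17a7, the most abundant in PBS mice, by 0.18 (SE 0.04, adjusted p = 0.00128) and Snap25, the most abundant in LPS mice, by 0.09 (SE 0.03, adjusted p = 0.0404). The Snap25 call was lost without ZT13 PBS replicate 2 or 3 or ZT13 LPS replicate 2, 3, 4 or 5 (adjusted p 0.0531 to 0.229), and with every gene with any reads tested, no intensity trend, replicate number as a block or a single fit (adjusted p 0.0519 to 0.248). The 5 choroid plexus markers, led by Ttr at 4.57 to 875 CPM, had 0 calls in either LPS against PBS comparison, although 3 of them passed as lower at ZT13 without ZT13 PBS replicate 2, which had 14.2 CPM in sum, and 4 of them with replicate number as a block (adjusted p 0.00115 to 0.0233). With group means removed, their mean log2 level had correlations of -0.10 to 0.42 with the class II genes over 16 libraries, the highest for H2-DMb1 and 0.32 for Cd74. With that level as a covariate, chosen after the data were seen, 2 and 5 class II genes were called at ZT1 and ZT13.

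Promoters of class II genes are known to share paired elements, the X box, bound by the RFX complex, and the Y box, bound by NF-Y, at a nearly fixed distance. RefSeq promoter sequences of the GRCm38.p6 build, 250 bases before to 50 bases after a gene's start, were at hand for 5 of the 8 genes, H2-Aa, H2-Eb1, H2-DMa, H2-DMb1 and Ctss, and not for H2-Ab1, Ciita and Cd74. The letters ATTGG, the core of a Y box, were present on either strand in 4 of the 5 genes and in 37.4% of all 32851 promoters, and on the gene's own strand in the same number of genes and in 22.1% of promoters. AGCAAC was present on either strand in 1 of the 5 genes and in 14.8% of all promoters, and the looser GNAAC, which AGCAAC contains, in 5 of 5 and 84.8%. GNAAC followed on the gene's own strand by ATTGG, with 25 to 28 bases between them, was found in 0.353% of all promoters (116 of 32851) and in H2-Aa, H2-Eb1 and H2-DMb1, but not in H2-DMa or Ctss. On the other strand the same pair was found in 0.359% of all promoters and in 0 of the 5 genes. The range of distances was chosen after these sequences were seen, so the share in the class II genes is not a test. Among 27 other pathway genes with a promoter, 3 held the pair: H2-Eb2, H2-Oa and H2-Ob.

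The windows are shown for the class II genes that hold the pair, with H2-Ob, whose distance is the shortest, beside them. Each is written 5′ to 3′ on the gene's own strand, with capitals for the GNAAC and ATTGG matches and 15 bases to either side. The H2-Aa window is chr17:34287852-34287919 on the minus strand, with 28 bases between the matches. The H2-Eb1 window is chr17:34305761-34305827 on the plus strand, with 27 bases between them. The H2-DMb1 window is chr17:34153082-34153149 on the plus strand, with 28 bases between them, and the H2-Ob window is chr17:34238803-34238867 on the plus strand, with 25. In the GENCODE annotation the H2-Aa, H2-Eb1 and H2-Ob windows hold 0 exon bases, while all 68 bases of the H2-DMb1 window lie in an exon of H2-DMb1 itself.
H2-Aa: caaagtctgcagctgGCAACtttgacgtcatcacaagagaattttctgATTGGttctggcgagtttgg
H2-Eb1: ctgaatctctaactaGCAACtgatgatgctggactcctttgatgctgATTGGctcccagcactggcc
H2-DMb1: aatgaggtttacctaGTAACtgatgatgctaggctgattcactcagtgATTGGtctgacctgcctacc
H2-Ob: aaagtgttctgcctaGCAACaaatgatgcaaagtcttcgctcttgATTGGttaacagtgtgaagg
A match describes the letters of these windows and does not show that a factor binds there. Of the class II genes that hold the pair, H2-Eb1 and H2-DMb1 rose at ZT13 and H2-Aa did not pass the test, while Ctss, which rose at both times, does not hold it.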

How the data were processed

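The libraries, 16 in number, were made from total cortex RNA depleted of ribosomal RNA. Values are CPM as the authors deposited them, and their processing notes name bcl2fastq, DRAGEN 4.0.3-8 and GRCm38; the counting method and its use of strand are not given in the sources used here. Of 55774 lines, 287 repeats were removed, leaving 55487 identifiers, 55141 of them in GENCODE M21. Small values (20 reads or fewer) were whole reads, to within 0.01 read, for 80.7% to 82.8% of genes by library, so counts were not recovered and no count test was run. Floors and read numbers cover counting error only.

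Genes reaching 1 CPM in 3 or more libraries were tested with limma 3.58.1 in R 4.3.3 on log2(CPM + 0.5), with an intensity trend and Benjamini-Hochberg adjustment. Each pair of groups was fitted alone, and the interaction on 4 group means. The fits were tested on simulated data. Tables were made with pandas 2.3.3 and numpy 2.4.6 in Python 3.11.15, and figures with matplotlib 3.10.9. The members and lists were chosen with earlier results of these data known. Genes named are all members, pathway genes called after LPS or in the interaction, the most abundant gene of each list (by the mean of all libraries), the largest marker rise and fall, markers at 0, H2-Ea, and the 5 genes most like the class II score. Alternatives were other pseudocounts and filters, median-of-ratios factors, sample quality weights, no intensity trend, a replicate block, a single fit, treatment from the treatment field, and each mouse left out in turn. The choroid plexus covariate and the sum of H2-DMb1 and H2-DMb2 were added after the data were seen.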

Additional observations from a re-analysis of the deposited data

Results flagged for a closer look

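In each LPS group of 5 libraries, the gap between the highest or lowest library and its nearest neighbour was divided by the range of the group, and values above 0.71 are given here. Of 146 gene and group pairs checked (73 genes in 2 groups), 6 passed, and chance alone gives about 1 in 20.

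Cd74 in ZT1 LPS replicate 1 was high, at 9.52 CPM against 5.35 to 6.16 CPM in the other libraries (0.804). Dcn was high in the same library, at 31.8 CPM against 23.98 to 26.0 CPM (0.74). In ZT1 LPS replicate 2 the microglia markers Sall1 (23.1 CPM against 36.6 to 37.5 CPM, 0.936) and Tmem119 (14.8 CPM against 23.2 to 26.6 CPM, 0.712) and the macrophage marker Cbr2 (0.716 CPM against 1.21 to 1.40 CPM, 0.726) were low. Lyve1, another macrophage marker, was high in ZT1 LPS replicate 5, at 1.59 CPM against 0.806 to 1.03 CPM (0.718). All 6 fell in the ZT1 LPS group and 0 in the ZT13 LPS group.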

How the results depend on the processing

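Apart from the treatment field, of 761 refitted values of the class II genes, 751 kept their direction where called and their side of the threshold, 8 lost a call (7 of H2-Ab1 and 1 of H2-Eb1, at ZT13), 2 gained one (H2-Ab1 and H2-DMb1 at ZT1) and 0 reversed. Of 2604 values of the other pathway genes, 2573 were the same, 26 lost a call, 5 gained one and 0 reversed. With each library left out in turn, 2 to 4 class II genes were called at ZT1, 4 to 5 at ZT13 and 0 in the other comparisons, and 9 to 11, 11 to 13 and 0 of the other pathway genes. Grouped by the treatment field, which is outside those values, 0 class II genes (2 and 5 by title) and 0 other pathway genes (10 and 13 by title) were called at ZT1 and ZT13. Testing only genes with CPM of at least 5 in 3 libraries left 4 class II genes, 2 of them called at ZT13, since fewer genes were tested.

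Under the replicate block 2, 5, 0, 0 and 0 class II genes were called at ZT1, at ZT13, between times in LPS mice and in PBS mice, and in the interaction. Residuals of 20 same-numbered pairs had correlations of -0.20 to 0.33 (median -0.01), so the numbers were not treated as pairs.

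Over all genes, the ZT1 count of 3061 was 1605 with every gene with any reads tested, and 1767, 1870 and 1770 without ZT1 PBS replicates 1, 2 and 3. The 4 genes between times in LPS mice became 1, 225, 0 and 122 with every gene tested, quality weights, no trend and a single fit, and 0 to 345 with libraries left out. The 98 in PBS mice became 65, 158, 3, 57 and 43 with every gene tested, CPM of at least 5, no trend, the replicate block and a single fit, and 12 to 87 with libraries left out. The 30 of the interaction became 12, 124, 11 and 0 with every gene tested, quality weights, no trend and the treatment field, and 7 to 104 with libraries left out. Under median-of-ratios scaling, 1668 rose and 1417 fell at ZT1 (2089 and 972 as deposited), and 2870 rose and 2759 fell at ZT13 (3629 and 1772). With the choroid plexus covariate, chosen after seeing the data, Ttr, part of that covariate, had 0.93 (adjusted p = 0.000617) at ZT13 in place of a negative value, the 1 reversal in 3641 values of marker genes. The cause was not tested for these shifts unless named.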
